A study of Mus musculus with 8 samples.

Results

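Of the 47643 named entries of the deposited expression table, 10 genes of prostaglandin synthesis, reception and breakdown were taken by their symbols: the cyclooxygenases Ptgs1 and Ptgs2, the prostaglandin E synthases Ptges, Ptges2 and Ptges3, the prostacyclin synthase Ptgis, the prostaglandin E2 receptors Ptger2, Ptger3 and Ptger4, and the prostaglandin-degrading enzyme Hpgd. All 10 were listed and passed the filter on low counts. RNA-seq was performed on primary bone marrow mesenchymal stem cells (MSCs), flushed from tibiae and femurs of C57BL/6 mice and kept for 2 days in osteogenic medium, which contained dexamethasone at 100 nM, β-glycerophosphate at 5 mM and ascorbic acid at 50 µg/ml. The 2 WT libraries carry the label wild type and came from Mettl3fl/fl mice, and the 2 cKO libraries came from Prx1-Cre;Mettl3fl/fl mice, so both groups carry the floxed allele. Prx1-Cre acts in limb bud mesenchyme and removes internal exons of Mettl3, the catalytic subunit of the m6A methyltransferase, so cells of blood origin in the same cultures are not its targets. MeRIP-Seq, an antibody pull-down of RNA fragments that carry N6-methyladenosine (m6A), was performed on 2 immunoprecipitates and 2 inputs of wild type MSCs given the same medium. The age and sex of the animals, and whether replicates were separate animals, are not given in the sources used here, so the p-values measure the spread between these libraries, which may be technical.

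Prostaglandins are lipid signals made from arachidonic acid. Phospholipases release the acid from membranes, the cyclooxygenases turn it into prostaglandin H2, and terminal synthases then make prostaglandin E2, prostacyclin and other prostanoids, which act through G-protein-coupled receptors on nearby cells. In bone, prostaglandin E2 is known to act on both osteoblasts and osteoclasts, Ptgs1 is the constitutive cyclooxygenase, and Ptgs2 is an early response gene whose transcription glucocorticoids such as dexamethasone repress.

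The libraries held 23978099 to 34106693 counts. Mettl3 itself was at 17.6 and 16.9 CPM (counts scaled to library size) in the WT-labelled and 17.5 and 16.3 CPM in the cKO-labelled libraries, with a log2 fold change of -0.03 (adjusted p = 0.824). Its count over the whole gene includes exons outside the deletion and does not check the labels, so the groups are named here by their labels. Macrophage markers were high in every library, with a summed level of 22316 to 31836 TPM (a value scaled for gene length and library size) over 9 genes against 1104 to 1257 TPM over 9 MSC markers. Most of the macrophage sum was Lyz2, at 14418 to 21709 TPM. In such mixed cultures fewer cells of a type and less RNA per cell cannot be told apart. The 2 cKO-labelled libraries lay far closer together than the WT-labelled pair, with a chi-square per degree of freedom of 1.82 over 14742 genes against 32.6 over 15223 genes, and they were also tested as 1 summed sample.

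Expression of 3 of the 10 prostaglandin genes fell in the cKO-labelled libraries, and none rose. These were Ptgs2, Ptgis and Ptges, an inducible cyclooxygenase and 2 terminal synthases. Among all 15327 genes tested, 30.5% passed the same threshold (quasi-likelihood test of edgeR, adjusted p under 0.05 after Benjamini and Hochberg), 16.8% as lower and 13.7% as higher, so a count of 3 in 10 is about the share of all genes. The median log2 fold change of the 10 genes was -0.09, beside 0.00 for all genes. The libraries of one group did not overlap with those of the other, in scaled CPM, for 5 of the 10, and for 68.9% of all genes tested. Hpgd was apart in TPM but not in scaled CPM. What set Ptgs2 and Ptgis apart was the size of the fall, which ranked 122 and 116 among the 15327 genes, whereas Ptges ranked 1468.

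**Figure D1:**
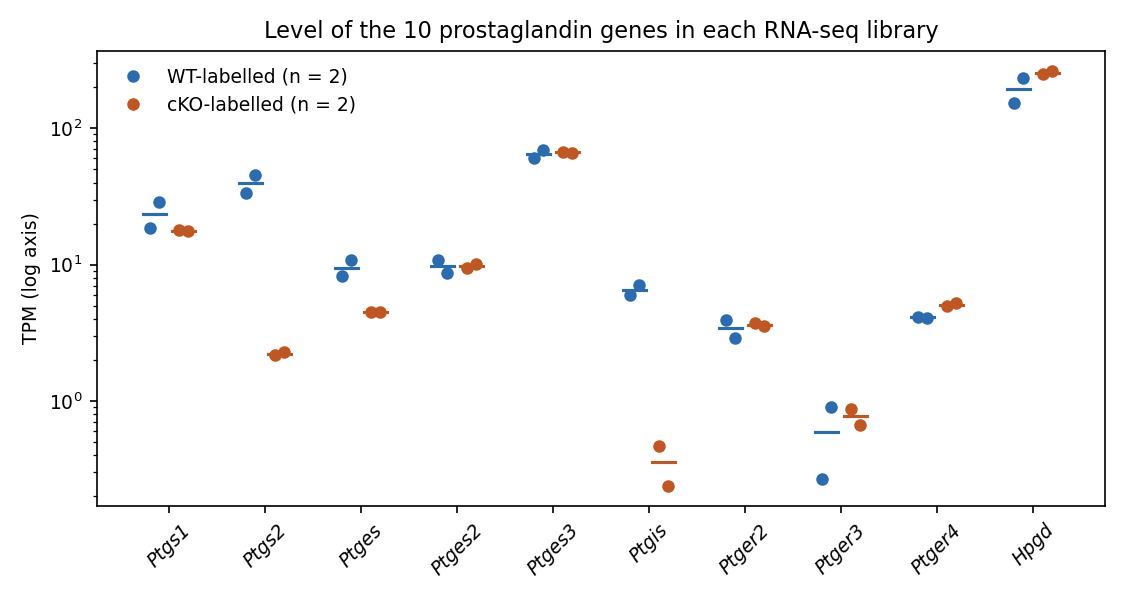
Level of each gene in TPM (log axis) by library. Points are libraries, 2 per group, and short lines are group means. Ptgs2 and Ptgis drop furthest from the WT-labelled to the cKO-labelled libraries, Ptges drops less, and the points of Ptges2, Ptges3, Ptger2 and Ptger3 overlap between the groups.

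Ptgs2 (ENSMUSG00000032487, GRCm38 chromosome 1, 150100031 to 150108227, plus strand) encodes the inducible cyclooxygenase. Its level was 33.7 and 45.2 TPM in the WT-labelled libraries and 2.17 and 2.27 TPM in the cKO-labelled libraries, from 3683, 4203, 160 and 220 counts. The cKO-labelled values lay close together and far under both WT-labelled values. The log2 fold change of scaled counts was -4.25 (SE 0.173, adjusted p = 2.51e-05), a 19.0-fold fall with a 95% confidence interval of 14.2 to 25.4. Ptgs1 (ENSMUSG00000047250, chromosome 2), the constitutive enzyme for the same step, was at 18.5 and 28.8 TPM in the WT-labelled and 18.0 and 17.5 TPM in the cKO-labelled libraries. Only a narrow gap separated the groups, the lower WT-labelled library being close to the cKO-labelled pair. The log2 fold change of Ptgs1 was -0.39 (95% confidence interval -0.74 to -0.04) and did not pass the test (adjusted p = 0.0889). It passed with the replicate number as a block (adjusted p = 0.0287), with no filter on low counts (adjusted p = 0.00124) and without WT replicate 1, when the log2 fold change was -0.59, whereas without WT replicate 2 it was -0.16.

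The balance of the cyclooxygenase transcripts lay far apart in the groups. Ptgs2 made up 64.6% and 61.1% of the summed TPM of Ptgs1 and Ptgs2 in the WT-labelled libraries and 10.8% and 11.5% in the cKO-labelled libraries. The mean share was 62.9% ± 2.47 (SD, n = 2) against 11.1% ± 0.511 (SD, n = 2), a difference of 51.8 percentage points (two-sided exact permutation p = 0.333, the smallest that 2 libraries against 2 can give). The summed level was 52.2 and 74.0 TPM in the WT-labelled and 20.2 and 19.8 TPM in the cKO-labelled libraries. Ptgs2 was the more abundant of the pair in both WT-labelled libraries, and Ptgs1 in both cKO-labelled libraries.

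**Figure D2:**
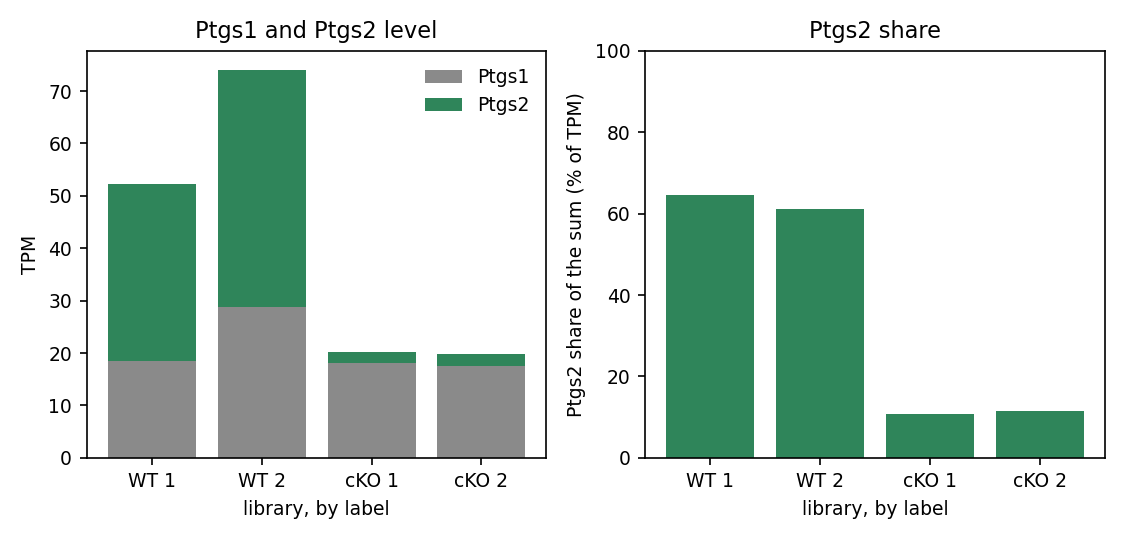
Left, stacked bars of Ptgs1 and Ptgs2 level in TPM for each library. Right, the share of Ptgs2 in their sum, in percent, at 64.6 and 61.1 in the WT-labelled and 10.8 and 11.5 in the cKO-labelled libraries, while the Ptgs1 bars differ far less.

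The promoter of Ptgs2 is shown because this gene fell and its control elements are well known: a CRE core (TGACG, bound by CREB and related factors), an E-box (CACGTG), and sites of C/EBP proteins, here searched as the palindrome TTGCGCAA. RefSeq (GRCm38.p6) windows of 250 bases before to 50 after the annotated start were found for 9 of the 10 genes and searched on both strands. No window was found for Ptgis, which also fell, so its promoter was not searched. The 250 bases upstream of the annotated Ptgs2 start (chr1:150099781-150100030, plus strand) hold the C/EBP palindrome, in capitals, from 69 to 62 bases before the start.
Ptgs2 upstream: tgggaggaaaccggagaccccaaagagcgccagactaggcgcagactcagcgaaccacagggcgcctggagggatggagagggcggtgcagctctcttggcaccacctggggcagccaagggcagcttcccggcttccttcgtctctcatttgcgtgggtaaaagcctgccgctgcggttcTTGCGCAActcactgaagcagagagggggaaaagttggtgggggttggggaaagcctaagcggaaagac
This palindrome was in 0.183% of 32851 windows, and Ptgs2 was the only one of the 9 genes to hold it. The E-box and the CRE core lie just after the annotated start, the former at bases 17 to 22 and the latter, read as CGTCA, at bases 14 to 18, so that they overlap. All positions are counted from the annotated start, and where transcription starts in these cells was not tested. The E-box is in capitals in this stretch (chr1:150100035-150100064, plus strand).
Ptgs2 start: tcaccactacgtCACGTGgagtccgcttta
The E-box was in 7.15% of all windows and, of the 9 genes, also in that of Ptges2, and the CRE core in 20.8% and also in that of Ptges3. The Ptges window held none of these letters, nor the TATAAA of a TATA box, which 13.6% of windows hold. These are matches of letters, and none was tested for binding.

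The terminal synthases differed among themselves. Ptgis (ENSMUSG00000017969, chromosome 2, 167191805 to 167240604, minus strand), which turns prostaglandin H2 into prostacyclin, was at 5.94 and 7.15 TPM in the WT-labelled libraries and 0.47 and 0.24 TPM in the cKO-labelled libraries. The cKO-labelled values rest on 14 and 10 counts, against 257 and 277 counts in the WT-labelled libraries. Its log2 fold change was -4.32 (SE 0.300, adjusted p = 0.000212), a 19.96-fold fall with a 95% confidence interval of 12.1 to 33.0, and this was the largest fold among the 10 genes. On the log2(TPM + 1) scale, which shrinks low genes, it was -2.48.

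Ptges (ENSMUSG00000050737, chromosome 2, 30889471 to 30929863, minus strand), the inducible microsomal prostaglandin E synthase that commonly works with Ptgs2, was at 8.19 and 10.8 TPM in the WT-labelled and 4.49 and 4.46 TPM in the cKO-labelled libraries. Every cKO-labelled value lay under every WT-labelled value. Its log2 fold change was -0.83 (SE 0.0966, adjusted p = 0.00171), a 1.77-fold fall with a 95% confidence interval of 1.51 to 2.08. The other two prostaglandin E synthases did not pass the test. Ptges2, a membrane-associated form, was at 10.9 and 8.71 TPM in the WT-labelled and 9.37 and 10.1 TPM in the cKO-labelled libraries, a log2 fold change of -0.12 (95% confidence interval -0.37 to 0.13, adjusted p = 0.432). Ptges3, the cytosolic form also known as the Hsp90 co-chaperone p23, was at 60.3 and 68.7 TPM in the WT-labelled and 66.7 and 66.4 TPM in the cKO-labelled libraries. Its log2 fold change was -0.06 (95% confidence interval -0.27 to 0.16, adjusted p = 0.679), and it was -0.16 and passed without WT replicate 1 (adjusted p = 0.000364).

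**Figure D3:**
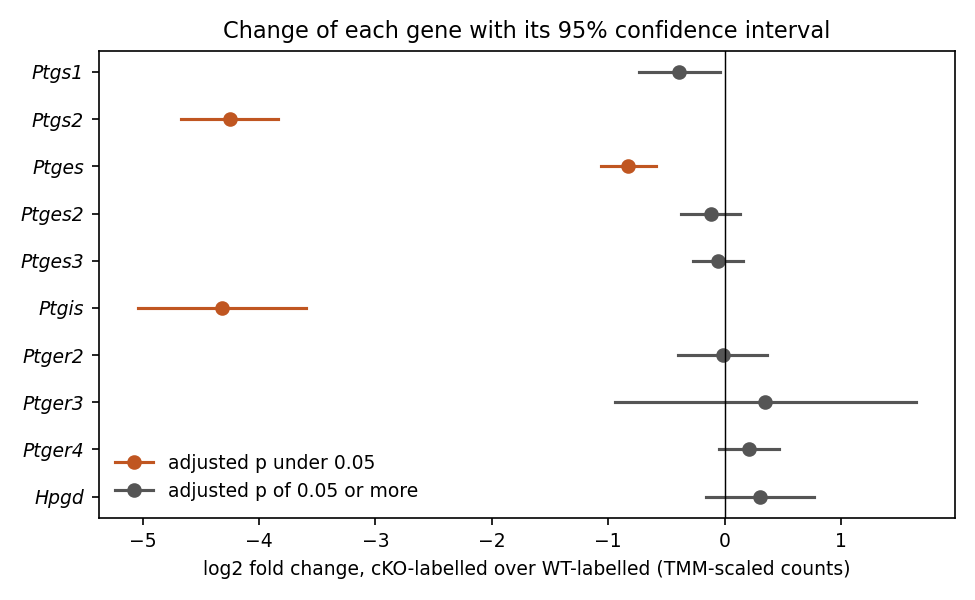
Log2 fold change of TMM-scaled counts, cKO-labelled over WT-labelled, for the 10 genes. Points are estimates from 2 libraries per group and bars their 95% confidence intervals. The intervals of Ptgs2 (-4.67 to -3.83), Ptgis and Ptges lie under 0 and pass the adjusted test, and that of Ptgs1 lies just under 0 and does not pass.

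None of Ptger2, Ptger3 and Ptger4 passed the test. Ptger2 (EP2) and Ptger4 (EP4) couple to Gs and raise cAMP, and Ptger3 (EP3) mainly couples to Gi. Ptger4 was at 4.16 and 4.09 TPM in the WT-labelled and 4.94 and 5.26 TPM in the cKO-labelled libraries. Its groups did not overlap, but the log2 fold change of 0.21 (95% confidence interval -0.05 to 0.47) did not pass (adjusted p = 0.187). Ptger4 shares 11676 bases with Ttc33 on the opposite strand, which held 606 to 824 counts, and the sources used here do not state whether counting used the strand, so its values are uncertain. Ptger2 was at 3.92 and 2.91 TPM in the WT-labelled and 3.72 and 3.53 TPM in the cKO-labelled libraries, which lay between the former values (log2 fold change -0.02, 95% confidence interval -0.40 to 0.37, adjusted p = 0.949). Ptger3 was the least abundant receptor, at 0.27 and 0.91 TPM in the WT-labelled and 0.88 and 0.67 TPM in the cKO-labelled libraries. With 17 to 46 counts a library, its interval ran from -0.94 to 1.64 on the log2 scale (adjusted p = 0.664). Without WT replicate 2 its log2 fold change was 1.39 (adjusted p = 0.00873) and without WT replicate 1 it was -0.29, so its direction rests on which WT-labelled library is used.

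Hpgd (ENSMUSG00000031613, chromosome 8, 56294552 to 56321046, plus strand), the 15-hydroxyprostaglandin dehydrogenase that begins the breakdown of prostaglandin E2, was the most abundant of the 10 genes. Its level was 153 and 234 TPM in the WT-labelled libraries and 252 and 261 TPM in the cKO-labelled libraries. The WT-labelled libraries differed from each other more than the higher of them did from the cKO-labelled pair. The log2 fold change was 0.30 (95% confidence interval -0.16 to 0.77, adjusted p = 0.278), with 0.02 without WT replicate 1 and 0.67, past the threshold, without WT replicate 2. With no filter on low counts Hpgd also passed, at 0.31 (adjusted p = 0.000293).

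In TPM, which takes the gene's length into account, the order in the WT-labelled libraries ran from Hpgd through Ptges3, Ptgs2, Ptgs1, Ptges2, Ptges, Ptgis, Ptger4 and Ptger2 to Ptger3. Each gene's pair of values lay apart from those of its neighbours in this order, except that Ptges2 and Ptges overlapped. In the cKO-labelled libraries the order was Hpgd, Ptges3, Ptgs1, Ptges2, Ptger4, Ptges, Ptger2, Ptgs2, Ptger3 and Ptgis, with no neighbours overlapping. Ptgs2 thus stood at rank 3 of 10 in the former and rank 8 in the latter, under the receptors Ptger4 and Ptger2. Ptgis moved from rank 7 to rank 10.

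The genes whose pattern over the 4 libraries was most like that of Ptgis, by the Euclidean distance between deviations of log2(CPM + 0.1) from the gene's mean among genes past the test, were Mia at 0.139, Gm26649 at 0.214, Hbegf at 0.221, Dhx58os at 0.317 and Rab11fip4 at 0.370. The distances of genes near 0 in the cKO-labelled libraries, such as Gm26649 (0.041 and 0 CPM) and Mia (0.165 and 0.063 CPM), depend on the 0.1 added. Among these, Hbegf, an EGF receptor ligand, was at 62.9 and 68.6 CPM in the WT-labelled and 5.24 and 3.42 CPM in the cKO-labelled libraries. Some cell type markers also differed between the groups, in both directions. The summed level of 4 cartilage genes was 1244 and 1245 TPM in the WT-labelled and 32.7 and 31.5 TPM in the cKO-labelled libraries, and all 4 fell. Macrophage markers differed less, at 22316 and 27310 against 31567 and 31836 TPM in sum, with 3 of 9 risen. Most of this sum was Lyz2, at 14418 and 20117 against 21566 and 21709 TPM, which was not called (adjusted p = 0.342). Of the 9 MSC markers, 4 rose and 4 fell. The largest change among them was that of Thy1, at 3.50 and 1.65 TPM in the WT-labelled and 70.0 and 65.2 TPM in the cKO-labelled libraries (log2 fold change 4.59). Lepr, a marker of adult marrow MSCs, was near 0 at 0.21 to 0.60 TPM and was not called. Neutrophil markers summed to 18.3 and 20.8 against 5.92 and 3.87 TPM (2 of 6 tested, 1 fell). Most of this sum was S100a8, which fell, at 17.2 and 18.7 against 5.02 and 2.37 TPM, whereas Camp was not called (adjusted p = 0.739). Endothelial markers summed to 1.23 and 1.33 against 9.34 and 7.92 TPM (3 of 5 tested, 2 rose). Those that rose were Kdr and Emcn, while Cdh5 had a log2 fold change of -1.16 and did not pass (adjusted p = 0.128). Megakaryocyte markers summed to 53.7 and 9.66 against 23.6 and 23.8 TPM (3 of 5 tested, 0 called). Mast cell markers summed to 0.05 to 0.28 TPM in all libraries, but 3 of 5, like 2 of the neutrophil markers, were listed at 0 in entries shorter than the gene and show no level. The part of these cells in the results was not tested.

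To place the 10 genes in their pathway, 49 further genes in 6 lists were read in the same test. Of these, 42 were tested, 11 rose and 11 fell, with a median log2 fold change of 0.05, beside 30.5% of all genes called. These calls were less firm than those of Ptgs2, Ptgis and Ptges, which passed under each of 11 alternative analyses. Of the 22 calls on the lists, 7 did so (Alox5, Anxa1, Dusp1, Prxl2b, Tbxa2r, Tbxas1 and Zfp36). Without cKO replicate 1 the lists held 8 calls, without cKO replicate 2 they held 9, and with the cKO-labelled libraries summed to 1 sample they held 9, namely those 7 with Pla2g5 and Slco2a1. Without either WT-labelled library, when the spread comes from the close cKO-labelled pair alone, there were 31.

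Among 9 phospholipases, which release arachidonic acid, 8 were tested, 2 rose and 3 fell. Pla2g5, a secreted enzyme, was at 1.80 and 4.78 TPM in the WT-labelled and 0.26 and 1.21 TPM in the cKO-labelled libraries (log2 fold change -3.47, adjusted p = 0.00591), from 4 and 10 counts in the latter. Pla2g4a, the cytosolic phospholipase A2 that supplies the cyclooxygenases, was at 28.0 and 29.6 TPM against 35.3 and 37.8 TPM, and its rise of 0.28 on the log2 scale only just passed (adjusted p = 0.0459). The lysosomal Pla2g15, the most abundant of the list at 101 to 145 TPM, rose by 0.34, while Plaat3 changed by -0.56 and Pla2g12a by -0.41. Of these 5 calls, only that of Pla2g5 held with the cKO-labelled libraries summed (adjusted p = 0.00437), and Pla2g4a then had an adjusted p of 0.221. On log2(TPM + 0.1), limma gave Pla2g5 an adjusted p of 0.118.

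Of 7 other terminal synthases, 6 were tested, 1 rose and 1 fell. Tbxas1, the thromboxane synthase, was at 34.3 and 23.3 TPM in the WT-labelled and 52.04 and 51.2 TPM in the cKO-labelled libraries (log2 fold change 0.74, adjusted p = 0.0115), and shares 762 bases with Hipk2 on the opposite strand. Prxl2b, a prostamide and prostaglandin F synthase, was at 79.3 and 57.3 TPM against 33.4 and 34.9 TPM (log2 fold change -1.17, adjusted p = 0.00224). Akr1b3, an aldose reductase with prostaglandin F synthase activity, was the most abundant, at 153 to 222 TPM, and did not pass (adjusted p = 0.124). Ptgds, a prostaglandin D synthase, was listed at 0, but its entry spans 37 bases against a gene length of 1327, so no level follows from it.

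Of 6 other prostanoid receptors, 4 were tested, 3 rose and 1 fell, and 3 of these calls are described. The thromboxane receptor Tbxa2r was at 1.29 and 1.56 TPM in the WT-labelled and 3.83 and 3.99 TPM in the cKO-labelled libraries (log2 fold change 1.36, adjusted p = 0.00500), so the synthase and the receptor of thromboxane both rose. The prostacyclin receptor Ptgir, at 0.31 to 1.09 TPM, rose by 1.15 (adjusted p = 0.0470), and the prostaglandin F receptor Ptgfr changed by -0.48 (adjusted p = 0.0277). With the cKO-labelled libraries summed, Ptgir had an adjusted p of 0.122 and Ptgfr of 0.199. Ptgdr was listed at 0 in an entry of 965 bases, shorter than its gene length of 3187, and no level follows from it.

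Among 6 genes of transport and inactivation, Slco2a1, the prostaglandin uptake transporter, was at 3.51 and 2.39 TPM in the WT-labelled and 1.5 and 1.88 TPM in the cKO-labelled libraries (log2 fold change -0.91, adjusted p = 0.0184), and it was the only one called. It passed in 8 of the 11 alternatives, not without cKO replicate 1 (adjusted p = 0.0720) nor in limma on either TPM scale. The carbonyl reductase Cbr3 was the most abundant of them, at 31.1 to 42.5 TPM, and did not pass (adjusted p = 0.0902). In the leukotriene and lipoxygenase branch, which competes for the same arachidonic acid, 5 of 7 genes were tested, 2 rose and 1 fell. Alox5, the 5-lipoxygenase, was at 2.44 and 2.59 TPM in the WT-labelled and 7.97 and 8.70 TPM in the cKO-labelled libraries (log2 fold change 1.64, adjusted p = 0.000248). Its partner Alox5ap was the most abundant gene of the branch at 505 to 665 TPM, with a rise of 0.22 (adjusted p = 0.0383) that held neither with the replicate block (adjusted p = 0.0625) nor with the cKO-labelled libraries summed (adjusted p = 0.355). Alox12 fell by 2.09 on the log2 scale from 23 and 25 to 6 and 4 counts (adjusted p = 0.0240, and 0.102 with the cKO-labelled libraries summed). Alox12b was listed at 0 in an entry of 247 bases, shorter than its gene length of 2431, and no level follows from it.

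Of 14 known regulators of Ptgs2, 13 were tested, 3 rose and 4 fell. Dusp1, a MAP kinase phosphatase that dexamethasone is known to induce, was at 196 and 233 TPM in the WT-labelled and 72.7 and 77.2 TPM in the cKO-labelled libraries (log2 fold change -1.62, adjusted p = 0.000178). Zfp36 (tristetraprolin), an RNA-binding protein known to promote decay of Ptgs2 mRNA, was at 38.0 and 33.9 TPM against 19.6 and 18.5 TPM (log2 fold change -1.01, adjusted p = 0.000315). Anxa1, an inhibitor of phospholipase A2 and the most abundant of the list, was at 655 and 621 TPM against 1074 and 1082 TPM (log2 fold change 0.65, adjusted p = 0.000461). The interleukin 1 receptor Il1r1 changed by -0.44, Creb1 by 0.30, Nfkb1 by 0.28 and Nfkbia by -0.22 on the log2 scale, and none of these 4 calls held with the cKO-labelled libraries summed, with adjusted p from 0.0842 to 0.376. Nfkbia also lost its call with the replicate block (adjusted p = 0.0547). Dusp1 and Zfp36, both known to restrain Ptgs2, fell, and Anxa1 rose. Their part in the fall of Ptgs2 was not tested.

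**Figure D4:**
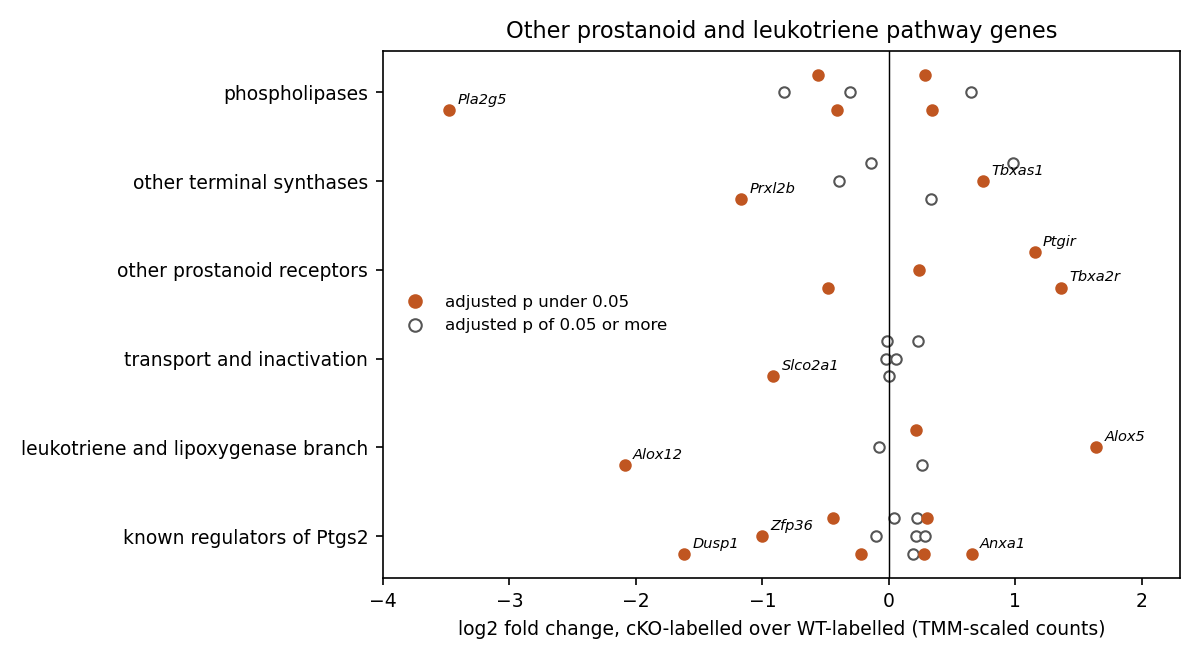
Log2 fold change of TMM-scaled counts for the 42 tested genes of the 6 lists, 1 row per list, cKO-labelled over WT-labelled, estimated from 2 libraries per group. Filled points passed the adjusted test (11 rose, 11 fell) and open points did not, and called genes with a fold change over 0.6 either way are named. Pla2g5 (-3.47) lies furthest left and Alox5 (1.64) furthest right.

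The m6A peaks of wild type MSCs were read from 1 deposited list of 10160 peaks on the mm9 genome, made by the authors from the MeRIP-Seq data. The list gives 1 pileup of fragments and 1 fold enrichment per peak, so no replicate error could be given and the depth is unknown. Of the 10 genes, 3 had the summit of a peak within them (6 peaks in all), beside 43.1% of 13423 tested protein-coding genes. These were Ptger2 with 1 peak, Ptger4 with 4 and Hpgd with 1, that is, 2 of the 3 receptors and the degrading enzyme. Of the 4 on Ptger4, 1 lies in an intron of that gene and in the coding sequence of Ttc33, and may belong to either. None of the 3 genes that fell had a peak, nor did Ptgs1, Ptges2, Ptges3 or Ptger3. Among genes within 1.5-fold of the WT-labelled level of Ptgs2, Ptgis and Ptges, 49.8%, 50.6% and 52.9% had a peak. A peak missing from the list does not show that a transcript is unmethylated.

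The peak on Ptger2 (plus strand) lies at chr14:45621510-45621749, with its summit in the coding sequence of exon 2 of 2, 75 nt before the last base of the stop codon. This summit also lies in an intron of Gm17173 on the opposite strand, and the list gives no strand. The peak had a pileup of 15 fragments and a fold enrichment of 10.3, and 97.7% of all peaks had a lower fold. Of the 4 peaks on Ptger4 (minus strand), the tallest, at chr15:5184352-5185116, lies in the coding sequence of exon 3 of 3, with its summit 210 nt before the end of the stop codon, a pileup of 97 and a fold enrichment of 4.84. One at chr15:5192736-5193059 lies in the coding sequence of exon 2 (pileup 75, fold 4.08), and one at chr15:5194013-5194263 in the 5′UTR (pileup 43, fold 5.39). The fourth, at chr15:5167136-5167432 (pileup 53, fold 2.74), lies in an intron of Ptger4 and in the coding sequence of Ttc33, and the list gives no strand to tell them apart. The peak on Hpgd, at chr8:58773230-58773429 on the plus strand, has its summit in the 5′UTR, 45 nt from the transcript's start (pileup 33, fold 3.21). The median over all peaks was a pileup of 60 and a fold of 4.03.

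The methyltransferase is known to prefer GGAC among its target sites, and the GGAC nearest to each summit is shown in capitals within 25 bases of the transcript strand (mm9), since these letters are where the mark could lie. The Hpgd peak held 0 GGAC, and the peak shared with Ttc33 is left out.
Ptger2, chr14:45621569-45621593: ctctgttgtcGGACttcactgagaa
Ptger4, exon 3, chr15:5184747-5184771: cccagggccaGGACtctgagagtgt
Ptger4, exon 2, chr15:5192730-5192754: gccactacgtGGACaagcggctggc
Ptger4, 5′UTR, chr15:5194085-5194109: caggcccagtGGACcccgtgccgcc
The motif lay 13 bases from the summit in Ptger2, and 81, 161 and 0 bases from it in the peaks of Ptger4 in the order given. Among the pathway lists, peaks were found on 1 of 8 annotated phospholipases, 2 of 7 other terminal synthases, 3 of 6 other receptors, 4 of 6 genes of transport and inactivation, 0 of 7 of the leukotriene branch and 8 of 14 regulators of Ptgs2. These counts include genes that were not tested, so the share of 43.1% over tested protein-coding genes is not a direct comparison.

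**Figure D5:**
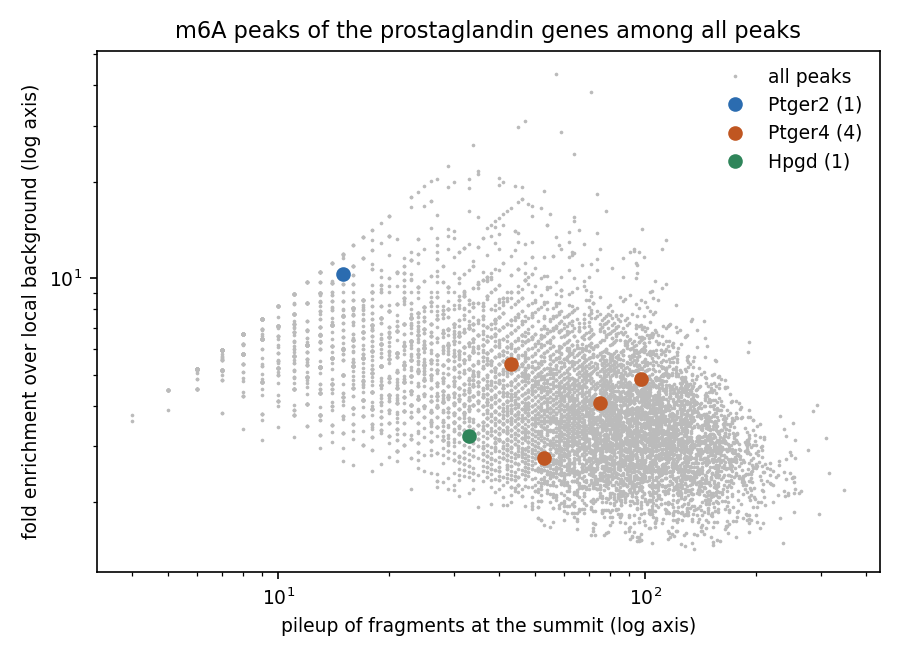
Fold enrichment over local background against the pileup at the summit (both log axes) for all 10160 peaks (grey) and the 6 peaks of Ptger2, Ptger4 and Hpgd. Each point is 1 peak of the deposited list. The Ptger2 peak combines a low pileup of 15 with a fold of 10.3, and the others lie between 2.74 and 5.39.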

How the data were processed

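RNA-seq (2 WT and 2 cKO libraries) and MeRIP-Seq (2 immunoprecipitates and 2 inputs) of cultured mouse bone marrow MSCs were analysed from the deposited tables. After quality control with FastQC and FASTX, the authors aligned reads with HISAT2 2.0.4 and compared genes with Ballgown. The submitters' processing notes also name TopHat, MACS2, mm10 and mm9, and the counting tool and its use of strand are not given in the sources used here. For each gene the authors deposited an estimated count, not normalized, and 4035 to 4545 entries per library were not whole. The deposited column headed FPKM sums to 1000000 in each library and is called TPM here. The authors' peak list gives the pileup signal, the fold enrichment, which is a ratio to the local background, and a q-value as its −log10 (its p-value column was not used), and does not say whether samples were pooled.

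Estimated counts were rounded. The 89 entries without a gene name (0.110% to 0.125% of a library) were left out. After filterByExpr and TMM scaling, genes were tested in edgeR 4.0.16 (quasi-likelihood, two-sided, no block) in R 4.3.3, with Benjamini-Hochberg adjustment over 15327 genes. Levels are given as deposited TPM and changes as log2 fold changes of scaled counts, with cKO over WT. Peaks were placed by summit on GENCODE vM1 (mm9). Alternatives were a replicate block, other size factors, no filter, DESeq2 1.42.0, limma 3.58.1 on log2(TPM + 0.1) and log2(TPM + 1), and each library left out. The cKO libraries summed to 1 sample were added after seeing the data.

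The 10 genes and the 6 lists were chosen with earlier results of these data known. Of each list, the called genes with the largest fold change (at most 8) and the most abundant gene are named, except for 1 called receptor gene, the most abundant of its list, whose values are not reported here. Genes listed at 0 were named after their values were seen.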

Additional observations from a re-analysis of the deposited data

How the results depend on the processing

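Ptgs2, Ptgis and Ptges kept their direction and passed in all 11 alternatives, so 3 of the 10 genes were called in each except with the replicate block (4), without a filter on low counts (5) and with a library left out (3 to 5). The replicate numbers are shared only as numbers, since deviations of same-numbered libraries correlated at 0.03. The replicate block gave 4881 calls over all genes, against 4677, and 22 on the lists, though Alox5ap (adjusted p = 0.0625) and Nfkbia (adjusted p = 0.0547) lost their call and other list genes gained one. On log2(TPM + 0.1) and log2(TPM + 1), limma called 2852 (1620 higher, 1232 lower) and 2831 genes, against 2100 higher and 2577 lower in edgeR, and 14 list genes (11 higher, 3 lower) on both scales. The median of all genes was then 0.10 and 0.09. DESeq2 called 3642 genes and 17 of the lists, and no filter 5874 and 27. Leaving out a library gave 1867 to 8750 calls over all genes and 8 to 31 on the lists, the lowest counts without a cKO library and the highest without a WT library. With the cKO libraries summed, 2012 genes and 9 list genes were called. The difference in the share of Ptgs2 was 58.4 percentage points in counts in place of TPM. The peak count of 6 held under all alternatives, each of which counted the peak shared with Ttc33. Uncalled genes changed sign under limma at log2(TPM + 0.1) and log2(TPM + 1): Ptges2 (0.0023 and 0.0016), Ptges3 (0.048 and 0.048) and Ptger2 (0.098 and 0.076). Leaving out a library gave ranges of -0.16 to 0.066 for Ptges3, -0.20 to 0.21 for Ptger2 and -0.29 to 1.39 for Ptger3. Among the 10 genes, the lowest counts behind a value were those of Ptgis (14 and 10 in the cKO libraries) and Ptger3 (17 to 46). Of the called list genes, Pla2g5 rested on 4 and 10 counts and Alox12 on 6 and 4 in the cKO libraries. The cause of these differences was not tested.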
